A study of Homo sapiens with 18 samples.

Results

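The genes described here are 8 stress regulators known to lie downstream of the transcription factor ATF4: ATF3, DDIT3, CEBPB, NUPR1, TRIB3, DDIT4, SESN2 and CHAC1. They were picked by name from the 3647 genes that appear in any of 3 deposited tables, each of which sets a drug treatment of Cal51 cells, a human breast cancer cell line, against its solvent control. The names were chosen with the changes against DMSO known, so those changes are given as descriptions without a test. The groups are cells given fenofibrate plus ezetimibe (called the combination), ezetimibe alone, fenofibrate alone and DMSO, each for 8 h and each with 3 libraries. Fenofibrate is a lipid-lowering drug that activates the nuclear receptor PPARα, and ezetimibe inhibits the sterol transporter NPC1L1. The labels give no dose, and they name the same line with no genetic change for all 4 groups, so the results describe a single cell line in culture. Nothing in the labels says that the replicates of a group were separate cultures. The spread between them may therefore be technical.

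Each table lists only genes that passed its authors' threshold, and no listed gene has a log2 fold change between -1 and 1 or an adjusted p over 0.05. A gene that is not listed may have been unchanged, changed by less or too low to test. Read numbers are inferred from the steps between the values, as described below. On that reading, the listed genes held between 40113 and 108822 reads per library in the fenofibrate table. The range was 185127 to 339263 in the ezetimibe table and 2550718 to 3265200 in the combination table. The same DMSO libraries serve all 3 tables. None of the 7 epithelial, 4 mesenchymal, 3 immune or 3 adipocyte markers looked for was listed, and of 2 endothelial markers CDH5 was listed as lower with ezetimibe at very low values (10.1 ± 3.37 against 26.8 ± 10.3 in DMSO, SD, n = 3 each). Tables of called genes cannot show whether unlisted markers are expressed, so the labelled cell type could not be checked. RNA was measured in bulk, and more cells with a transcript cannot be told apart from more transcript per cell.

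ATF4 acts at the centre of the integrated stress response. Kinases that sense misfolded protein, lack of amino acids, haem shortage or viral RNA phosphorylate the translation factor eIF2α, which lowers protein synthesis in general but raises translation of the ATF4 message. ATF4 then binds C/EBP-ATF response elements (CARE) with partner bZIP proteins and switches on genes for amino acid supply, together with regulators that shape or end the response. ATF3, DDIT3 (also called CHOP) and CEBPB are themselves bZIP transcription factors, and the deposited tables annotate these 3 as such. NUPR1 is a small chromatin-associated protein. TRIB3 is a pseudokinase that binds ATF4 and AKT, DDIT4 and SESN2 restrain the growth kinase complex mTORC1, and CHAC1 breaks down glutathione. Whether any of them depended on ATF4 in these cells was not measured.

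The windows before the start sites were searched because the 8 genes are listed together as higher. The RefSeq promoter table (GRCh38.p14) held windows of 250 bases before to 50 bases after a start for 7 members, all but NUPR1. Of these starts, only DDIT3 start 2 is the same base as a transcript start in GENCODE release 29. Apart from CEBPB start 1 and the SESN2 start, all the starts lie inside the deposited coordinates of their gene. Examples are CHAC1 (40953471 in 40952962 to 40956519) and DDIT3 start 1 (57520514 in 57516588 to 57521737). TRIB3 start 1 (381295 in 362835 to 397559) and ATF3 start 2 (212615018 in 212565334 to 212620777) lie farther inside. Such a window can lie within the gene and not before it. Which starts were used in these cells was not measured. On both strands, the CARE motif (TGATGNAA) was found in the CHAC1 window and in that of ATF3 start 1 but not ATF3 start 2. It was found in 3.62% of 35116 windows in the table. The AP-1 motif (TGANTCA) was found in the windows of DDIT3 starts 1 and 2, against 7.71% of windows. The shares count windows while the members are genes, some with more than 1 window, so nothing is read from setting them side by side. No member window held the cAMP response element TGACGTCA (1.85% of windows), the CHOP site TGCAAT (8.21%) or the endoplasmic reticulum stress element (0.0769%). The 5 motifs did not overlap in any member window. The 250 bases before the start are shown for the 3 members with a match, 5′ to 3′ on the strand of the gene, with the match in capitals. The CHAC1 stretch is chr15:40953221-40953470 (plus strand), and its match, 209 bases before the start, is CARE on the opposite strand. The ATF3 stretch is chr1:212565157-212565406 (plus strand), before the first of 2 ATF3 starts in the table, and its match begins 191 bases before that start. The DDIT3 stretch is chr12:57520515-57520764 (minus strand), before the first of 2 DDIT3 starts, with its match 241 bases before it.
CHAC1: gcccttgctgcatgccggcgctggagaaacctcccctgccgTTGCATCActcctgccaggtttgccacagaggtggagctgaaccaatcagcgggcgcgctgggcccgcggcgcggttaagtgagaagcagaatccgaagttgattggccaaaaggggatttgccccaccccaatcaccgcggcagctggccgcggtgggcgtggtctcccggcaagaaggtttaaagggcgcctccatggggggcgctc
ATF3: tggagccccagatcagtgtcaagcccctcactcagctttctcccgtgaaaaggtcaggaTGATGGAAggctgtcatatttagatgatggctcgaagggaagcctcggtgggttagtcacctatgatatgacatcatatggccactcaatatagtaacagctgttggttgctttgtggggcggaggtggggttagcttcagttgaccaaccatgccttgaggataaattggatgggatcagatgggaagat
DDIT3: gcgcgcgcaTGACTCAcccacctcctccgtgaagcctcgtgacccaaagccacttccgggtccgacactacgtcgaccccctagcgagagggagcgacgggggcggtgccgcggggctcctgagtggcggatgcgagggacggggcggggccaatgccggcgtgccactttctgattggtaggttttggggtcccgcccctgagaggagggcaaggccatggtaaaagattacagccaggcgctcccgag
A match describes letters in a window and does not show that a factor binds there. Sites outside the windows were not searched, so the lack of a match does not show that a gene lacks the motif.

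All 8 genes were listed as higher in the authors' deposited tables for the combination and for ezetimibe, and 4 of the 8 (ATF3, DDIT3, NUPR1 and TRIB3) for fenofibrate. For comparison, 10.3% of the genes tested were listed as higher with the combination, 2.7% with ezetimibe and 0.761% with fenofibrate, where the numbers of genes tested were inferred from the ranks of the deposited p-values. The rule chose the members on these contrasts, so nothing is read from those shares. In the authors' deposited tables the median log2 fold change of the members was 3.02 for the combination, 1.47 for ezetimibe and, over 4 members, 1.52 for fenofibrate. The same median over all listed higher genes was 1.82, 1.33 and 1.24 in that order. Within the members the range was wide with the combination, between 1.63 for CEBPB and 5.61 for ATF3 (authors' deposited table). The values closest to the listing threshold were 1.09 for CEBPB with ezetimibe, 1.18 for DDIT3 with fenofibrate and 1.24 for ATF3 with fenofibrate, all from the authors' deposited tables. No fenofibrate value is at hand for the other 4 members, which are not listed there.

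**Figure D1:**
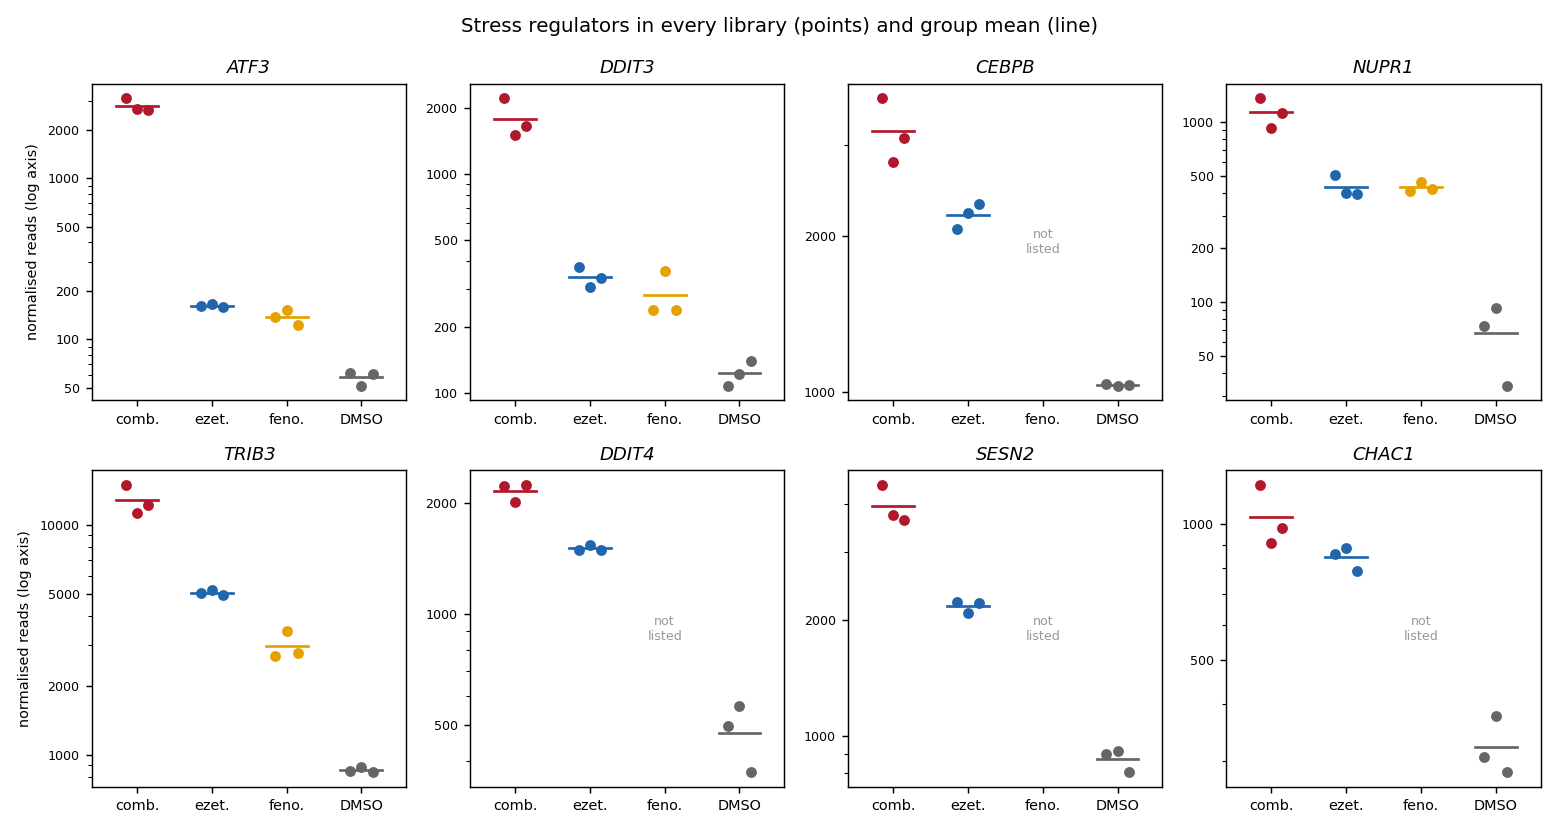
Normalised reads of each stress regulator (log axis) in every library of the combination (comb.), ezetimibe (ezet.), fenofibrate (feno.) and DMSO groups, with points for the 3 libraries and a line for their mean. In every panel the combination libraries lie above all others, for example between 2649.7 and 3148 for ATF3 against 51.4 to 61.5 in DMSO.

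The first member group is the bZIP factors. ATF3 (ENSG00000162772, hg38 chromosome 1, 212565334 to 212620777), a stress-induced factor that mostly represses, had 3148, 2684 and 2649.7 normalised reads in the combination libraries. It had 161, 166 and 158 with ezetimibe, 137, 152 and 123 with fenofibrate, and 61.5, 51.4 and 60.8 in DMSO. Every treated library lay above every DMSO library in all listed members. The same held for 58.0% of genes in the combination table, 76.3% in the ezetimibe table and 90.2% in the fenofibrate table. These shares include the genes listed as lower, which cannot qualify. In that order the counts were 2033, 360 and 92 genes, beside 2058, 367 and 93 listed as higher. Nothing is read from these shares, since the rule used these contrasts. No combination library was near those of another group, while the ezetimibe and fenofibrate libraries were close to each other without overlap. On the ratio of means ATF3 stood 48.8-fold above DMSO with the combination, 2.79-fold with ezetimibe and 2.37-fold with fenofibrate.

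DDIT3 (ENSG00000175197, chromosome 12, 57516588 to 57521737), which promotes cell death under lasting stress, had 2215, 1497 and 1646 normalised reads with the combination. Its ezetimibe libraries held 378, 307 and 335, its fenofibrate libraries 239, 362 and 240.2, and its DMSO libraries 108, 122 and 141. The single-drug groups overlapped, since fenofibrate replicate 2 lay above 2 of the ezetimibe libraries. The ratio of means to DMSO was 14.4 with the combination, 2.75 with ezetimibe and 2.26 with fenofibrate. Without fenofibrate replicate 2, the log2 ratio for fenofibrate was 0.95, under the listing threshold. DDIT3 shares 355 of its 1307 exon bases with the antisense-strand gene MARS, 105 with AC022506.1 on its own strand and 58 with MBD6 on the other, none of them listed. No source says whether reads were counted by strand, so the assignment of reads in those bases is uncertain.

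CEBPB (ENSG00000172216, chromosome 20, 50190734 to 50192689), a C/EBP factor that pairs with ATF4 and DDIT3, had 3691, 2783 and 3088 normalised reads with the combination and 2061, 2211 and 2307 with ezetimibe. The DMSO libraries had 1034, 1026 and 1030.0, the narrowest spread of any member and group (coefficient of variation 0.389%). The 3 groups did not overlap, and their ratios of means to DMSO were 3.09 with the combination and 2.13 with ezetimibe. Its antisense RNA CEBPB-AS1 shares 231 exon bases with it and was also listed as higher with the combination, at 59.4 ± 7.99 against 7.43 ± 2.84 normalised reads in DMSO (SD, n = 3 each). As for DDIT3, the assignment of reads in the shared bases is uncertain, so reads of CEBPB may be among those of CEBPB-AS1.

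NUPR1 (ENSG00000176046, chromosome 16, 28532708 to 28539174), the chromatin-associated stress protein, had 1355, 928 and 1117 normalised reads with the combination. Ezetimibe libraries held 503, 403 and 398 and fenofibrate libraries 412, 462 and 424, against 73.3, 92.7 and 34.2 in DMSO. The single drugs gave nearly the same mean (434.8 ± 59.1 with ezetimibe and 432.6 ± 26.5 with fenofibrate, SD, n = 3 each), and their libraries overlapped. The DMSO libraries differed 2.71-fold among themselves, the widest spread of any member. The ratio of means to DMSO was 17.0 with the combination, 6.52 with ezetimibe and 6.49 with fenofibrate. By size it stood at place 3 of the 93 genes listed as higher with fenofibrate and at place 22 of 367 with ezetimibe.

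TRIB3 (ENSG00000101255, chromosome 20, 362835 to 397559), the pseudokinase, had 14944, 11289 and 12169 normalised reads with the combination, 5039.7, 5222 and 4968 with ezetimibe, 2692, 3468 and 2773 with fenofibrate and 848, 888 and 837 in DMSO. The 4 groups stood in that order without overlap. Ratios of means to DMSO were 14.9, 5.92 and 3.47 for the combination, ezetimibe and fenofibrate.

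DDIT4 and SESN2 act on mTORC1, DDIT4 through the TSC complex and SESN2 as a leucine-sensitive inhibitor. DDIT4 (ENSG00000168209, chromosome 10, 72273920 to 72276036) had 2233, 2016 and 2244 normalised reads with the combination, 1491, 1539 and 1494 with ezetimibe, and 495, 563 and 371 in DMSO. SESN2 (ENSG00000130766, chromosome 1, 28259527 to 28282491) had 4490.5, 3758 and 3630.3 with the combination, 2225, 2088 and 2216 with ezetimibe, and 901, 916 and 805 in DMSO. For both genes the 3 groups did not overlap. Ratios to DMSO were alike for the 2 genes with the combination (4.54 for DDIT4 and 4.53 for SESN2) and were 3.16 and 2.49 with ezetimibe. DDIT4 shares 847 of its 2058 exon bases with the antisense RNA DDIT4-AS1, which was not listed, so part of its reads could not be assigned by position alone.

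CHAC1 (ENSG00000128965, chromosome 15, 40952962 to 40956519), which cleaves glutathione, had 1221, 907 and 979.6 normalised reads with the combination, 858, 886 and 789 with ezetimibe, and 306, 376 and 283 in DMSO. The combination and ezetimibe libraries came within a small gap of each other, 907 at the lowest against 886 at the highest. Ratios to DMSO were 3.22 with the combination and 2.62 with ezetimibe.

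Levels can be set between genes only per gene length. The deposited length of each member equals all its annotated exon bases, which can exceed the transcript that was expressed. The order below depends on this length. NUPR1 has the longest (5674 bases), and undivided, its combination mean of 1133 normalised reads was above the 1036 of CHAC1. In normalised reads per kb the combination group ran from TRIB3 at 3728 ± 556 through CEBPB (1630 ± 236), DDIT3 (1367 ± 290), SESN2 (1147 ± 134), DDIT4 (1052 ± 62.3), ATF3 (699.8 ± 68.8) and CHAC1 (503 ± 79.8) to NUPR1 at 199.7 ± 37.7 (SD, n = 3). Neighbours from CEBPB down to DDIT4 did not differ by more than their spread, and the other neighbours did. With ezetimibe the order was TRIB3, CEBPB, DDIT4, SESN2, CHAC1, DDIT3, NUPR1 and ATF3, between 1478 ± 38.1 and 40.1 ± 0.924 per kb, and every neighbour differed by more than the spread. The 4 members listed with fenofibrate ran from TRIB3 (867 ± 124) over DDIT3 (214 ± 53.9) and NUPR1 (76.2 ± 4.66) to ATF3 (34.0 ± 3.67). In DMSO, CEBPB led at 527 ± 2.05, SESN2, TRIB3 and DDIT4 followed at 253 ± 17.5, 249.7 ± 7.81 and 232 ± 47.1 without separating, and ATF3 (14.3 ± 1.40) and NUPR1 (11.8 ± 5.26) were lowest and not separated. ATF3 thus stood at place 8 of 8 with ezetimibe and at place 6 of 8 with the combination, and DDIT3 at place 6 and place 3.

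**Figure D2:**
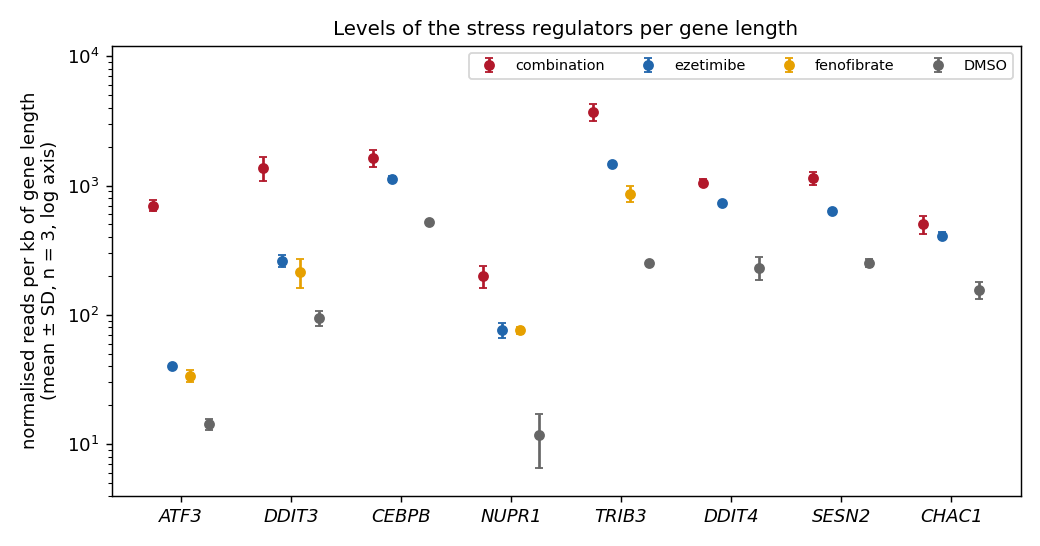
Normalised reads per kb of gene length (log axis, mean ± SD, n = 3) for each stress regulator in the combination, ezetimibe, fenofibrate and DMSO groups, where listed. TRIB3 reaches 3728 per kb with the combination, while ATF3 and NUPR1 lie lowest in DMSO at 14.3 and 11.8.

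The next comparison asked what the second drug added to each drug alone, a contrast the authors' tables do not contain. The contrast uses the same libraries as the changes against DMSO, which were known when the members were chosen. The members' p-values and ranks here and in the following comparisons are therefore not independent of that choice. Limma was fitted to log2 of the value plus 1 over all genes shared by the tables concerned, with Benjamini-Hochberg adjustment over those genes. The shared genes were taken whichever way they changed against DMSO, while the members were all listed as higher. Shares and medians over shared genes, here and for the lists below, are therefore no matched background. Nothing is read from setting them side by side. Against ezetimibe alone, 7 of 8 members rose with the combination, beside 53.2% of the 359 genes shared by both tables, and none fell, beside 10.0%. The members' median log2 difference was 1.09, beside 0.53 for all 359 genes. ATF3 had the largest difference of all 359 genes, at 4.11 ± 0.13 on the log2 scale (SE, limma adjusted p = 6.06e-11), and DDIT3 ranked at place 15 with 2.37 ± 0.16 (limma adjusted p = 5.95e-08). NUPR1 (1.37 ± 0.28, limma adjusted p = 0.000896) and TRIB3 (1.32 ± 0.10, limma adjusted p = 1.33e-07) followed. SESN2, CEBPB and DDIT4 rose by less, with 0.86 ± 0.10, 0.53 ± 0.11 and 0.52 ± 0.13 on the log2 scale (limma adjusted p = 7.00e-06, 0.000676 and 0.00406). CHAC1 did not pass, at 0.28 ± 0.14 (95% interval -0.02 to 0.59, limma adjusted p = 0.0955). Without combination replicate 2 its difference was 0.37 and did pass (limma adjusted p = 0.0446), and without combination replicate 1 it was 0.16 (limma adjusted p = 0.289). Over all fits that left out a library the adjusted p ran from 0.0446 to 0.289. Every combination library lay above every ezetimibe library in all 8 members, which held for 58.8% of the 359 genes.

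Against fenofibrate alone, all 4 members with values rose, beside 69.2% of the 65 shared genes, and none fell, beside 9.23%. Every combination library lay above every fenofibrate library in all 4, which held for 67.7% of the 65 genes. Their median log2 difference was 2.39, beside 1.07 for all 65 genes. ATF3 again had the largest difference of all (4.36 ± 0.13 on the log2 scale, limma adjusted p = 2.06e-09). DDIT3 followed at 2.67 ± 0.20 (limma adjusted p = 5.98e-07), TRIB3 at 2.10 ± 0.12 (limma adjusted p = 6.90e-08) and NUPR1 at 1.37 ± 0.31 (limma adjusted p = 0.00219). In ratios of means the combination exceeded fenofibrate 20.6-fold for ATF3 and 2.62-fold for NUPR1.

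**Figure D3:**
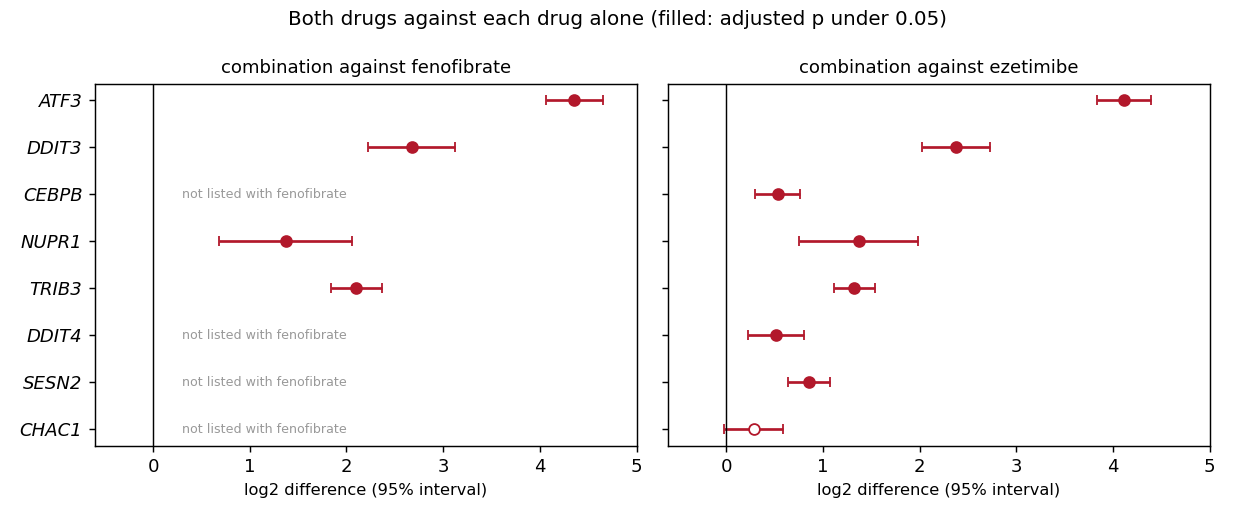
Log2 difference of the combination over fenofibrate (left) and over ezetimibe (right) for each stress regulator, with 95% intervals from limma, where filled points pass an adjusted p of 0.05 and the 4 members not listed with fenofibrate have no value. ATF3 is farthest right in both panels (4.36 and 4.11), and CHAC1 is the open point, at 0.28.

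Ezetimibe alone and fenofibrate alone were compared over the same 4 members. TRIB3 rose with ezetimibe relative to fenofibrate by 0.78 ± 0.09 on the log2 scale (limma adjusted p = 1.74e-05), the only member of 4 to pass, beside 43.3% of the 60 shared genes called higher and 15.0% called lower. Every ezetimibe library lay above every fenofibrate library in ATF3 and TRIB3, which held for 51.7% of the 60 genes. ATF3 had a difference of 0.24 (95% interval -0.08 to 0.56), DDIT3 of 0.30 (-0.07 to 0.68) and NUPR1 of 0.00 (-0.62 to 0.62), with limma adjusted p of 0.173, 0.147 and 0.999. Without fenofibrate replicate 2, the highest fenofibrate library in all 4 members, the DDIT3 difference was 0.50 and passed (limma adjusted p = 0.0102).

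On the log2 scale, the effect of giving both drugs was then compared with the added effects of each alone, which was possible for the 49 genes in all 3 tables. The 4 members split. ATF3 was above the sum by 2.89 ± 0.17, the highest of the 49 genes (SE, limma adjusted p = 7.28e-08), and DDIT3 by 1.22 ± 0.26, at place 3 (limma adjusted p = 0.00167). NUPR1 was below the sum, with a difference of -1.42 ± 0.40 (limma adjusted p = 0.00858), and so was TRIB3, with -0.46 ± 0.16 (limma adjusted p = 0.0183). Of all 49 genes, 16.3% were called above and 55.1% below the sum, and their median was -0.60. A gene enters this comparison only if each drug alone changed it by more than the listing threshold, and the same DMSO libraries stand in every term.

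**Figure D4:**
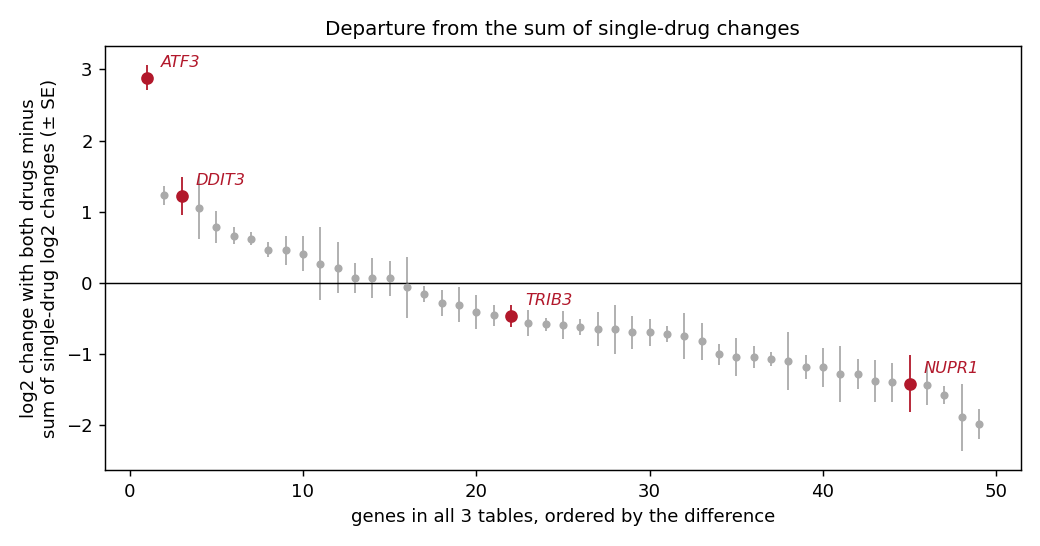
Log2 change with both drugs minus the sum of the single-drug log2 changes (± SE) for the 49 genes in all 3 tables, ordered from high to low, with the stress regulators in red. ATF3 at 2.89 and DDIT3 at 1.22 lie above 0, and TRIB3 at -0.46 and NUPR1 at -1.42 lie below.

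The scale matters for TRIB3 and NUPR1. In normalised reads, the combination exceeded the DMSO level plus both single-drug gains in all 4 genes. ATF3 reached 2827 against a sum of 241, an excess of 2586 ± 161 (SE), and DDIT3 reached 1786 against 497, an excess of 1289 ± 224. TRIB3 reached 12801 against 7197 (excess 5604 ± 1131) and NUPR1 1133 against 801 (excess 332 ± 130.3), so both were above the sum in reads while below it on the log2 scale. Against the product of the single-drug folds the combination stood at 7.38 times for ATF3, 2.32 times for DDIT3, 0.726 times for TRIB3 and 0.402 times for NUPR1. ATF3 and DDIT3 were above on both scales. These values in reads are a description without a test.

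**Figure D5:**
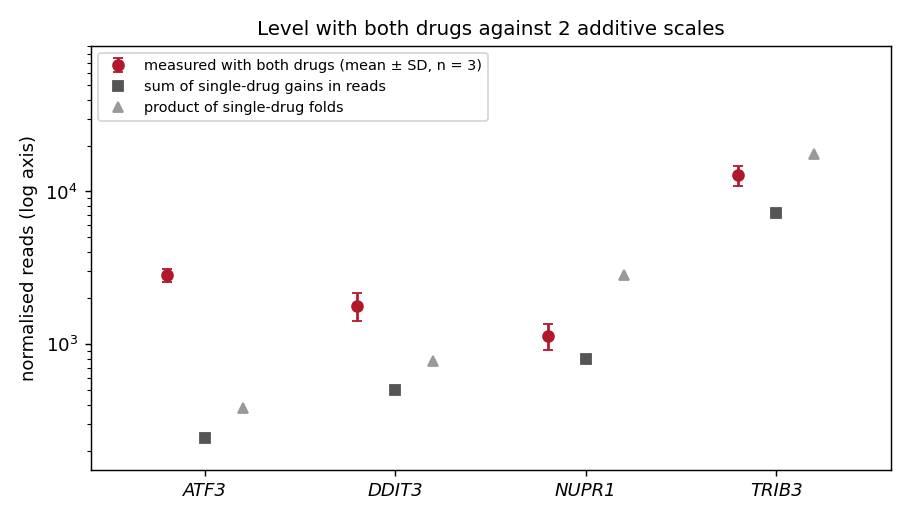
Normalised reads with both drugs (mean ± SD, n = 3), beside the sum of DMSO and both single-drug gains and the product of single-drug folds, on a log axis, for the 4 stress regulators in all 3 tables. The combination lies above both reference marks for ATF3 and DDIT3 and between them for NUPR1 and TRIB3.

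The wider pathway was counted from lists, first at its upstream end. Beside each list's count of listed genes stand the shares over all genes tested, which were 10.3% higher and 7.27% lower with the combination, 2.7% higher and 0.772% lower with ezetimibe, and 0.761% higher with fenofibrate. Of 11 genes upstream of the members, including ATF4 and the 4 eIF2α kinases, EIF2AK3 and PPP1R15A were listed, and ATF4 was in none of the tables. EIF2AK3 encodes PERK, the kinase that senses stress in the endoplasmic reticulum. It averaged 822 ± 91.1 normalised reads with the combination, 526 ± 24.9 with ezetimibe and 260.1 ± 19.0 in DMSO, and rose with the combination over ezetimibe (log2 0.64 ± 0.12, limma adjusted p = 0.000462). PPP1R15A, also called GADD34, is counted here because it returns eIF2α to its unphosphorylated form, and what raised it was not measured. It was listed with the combination alone, at 6055 ± 804 against 516 ± 64.8 in DMSO.

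Of 22 relatives of the members by sequence family, 4 were listed as higher and 2 as lower with the combination, beside 10.3% and 7.27% of all genes tested. BATF3 (70.0 ± 9.89 against 9.99 ± 7.26 in DMSO), ATF6 (2579 ± 94.0 against 1160.4 ± 145), CEBPG (2355 ± 116 against 1083 ± 72.9) and CEBPA (156 ± 27.9 against 72.4 ± 15.3) were higher. ATF6 is the sensor of a separate arm of the unfolded protein response, and CEBPG is a bZIP partner of ATF4. The stress regulators' relatives listed as lower were SESN3, a sestrin induced by FOXO factors (147 ± 24.0 against 683 ± 49.8), and JDP2, the close relative of ATF3 (259 ± 17.4 against 585 ± 88.4). CEBPA was also listed with ezetimibe (146 ± 10.6), and its level with the combination did not pass against ezetimibe (log2 0.08 ± 0.20, limma adjusted p = 0.747). DDIT4L, SESN1, TRIB1, TRIB2, NUPR2 and CHAC2 were not listed.

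Among ATF4 targets outside the 8 genes, the amino acid list had 12 of 22 genes listed as higher with the combination, 8 with ezetimibe and 4 with fenofibrate, beside 10.3%, 2.7% and 0.761% of all genes tested. Against ezetimibe, 3 of the 7 with values rose with the combination (PCK2, SLC1A4 and SLC6A9), beside 53.2% of all 359 genes. The list's median log2 difference was 0.32, beside 0.53 over those genes. PHGDH was listed with ezetimibe (7841 ± 146 against 3464 ± 208 in DMSO) but not with the combination, so it could not be compared. ALDH1L2, a mitochondrial folate enzyme, averaged 2117 ± 691 with the combination and 1633 ± 85.3 with ezetimibe (log2 0.32 ± 0.20, limma adjusted p = 0.182). ASNS, asparagine synthetase, averaged 175 ± 28.4 and 135 ± 19.3 (log2 0.37 ± 0.20, limma adjusted p = 0.128). Of 13 genes that charge or export transfer RNA, 5 were listed as higher with the combination and 3 with ezetimibe, beside 10.3% and 2.7% of all genes tested. All 3 rose further with the combination, beside 53.2% of the 359 genes, by log2 0.42 ± 0.08 for WARS to 0.69 ± 0.09 for AARS (limma adjusted p = 0.000643 and 1.25e-05).

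The list of 6 secreted factors had all members listed as higher with the combination, 5 with ezetimibe and 4 with fenofibrate, beside the same 10.3%, 2.7% and 0.761%. GDF15, a stress cytokine, averaged 15238 ± 2110 with the combination, 2422 ± 29.2 with ezetimibe, 1777 ± 102 with fenofibrate and 667 ± 61.0 in DMSO. It was above the log2 sum of the single drugs by 1.23 ± 0.14 (limma adjusted p = 1.29e-05), next to DDIT3 in size. STC2, ADM2 and INHBE were below the sum, at -0.72 ± 0.11, -0.56 ± 0.18 and -1.40 ± 0.27 (limma adjusted p = 0.000135, 0.0142 and 0.000850). Of the 4 amino acid genes in that comparison 3 were below the sum as well, beside 55.1% of the 49 genes, between -1.05 for PCK2 and -1.01 for SLC6A9.

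The unfolded protein response list, which is not driven by ATF4 alone, had 13 of 15 genes listed as higher with the combination, 8 with ezetimibe and none with fenofibrate, beside 10.3%, 2.7% and 0.761% of all genes tested. All 8 with values rose with the combination over ezetimibe, by a median log2 of 1.20, beside 53.2% of the 359 genes and a median of 0.53. They included the co-chaperone DNAJB9 (3369 ± 44.0 with the combination and 1053 ± 13.2 with ezetimibe, log2 1.68 ± 0.09, limma adjusted p = 1.25e-08), the chaperone HSPA5 (143891 ± 5378 with the combination and 50689 ± 278 with ezetimibe, limma adjusted p = 7.37e-11) and the ubiquitin ligase SYVN1 (log2 1.42 ± 0.08, limma adjusted p = 1.86e-08). ERN1, which encodes the sensor IRE1, was listed with the combination alone (2226 ± 405 against 209.5 ± 12.0 in DMSO).

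Lists around the members' own actions held fewer genes. Of 9 cell death genes, 5 were listed as higher and 1 as lower with the combination, beside 10.3% and 7.27% of all genes tested. None was listed with a single drug, beside 2.7% of all genes tested listed as higher with ezetimibe and 0.761% with fenofibrate, so little can be read from that count over 9 genes. GADD45A, a growth arrest gene (10433 ± 211 against 538 ± 32.6 in DMSO), and TNFRSF10B, a death receptor known as a DDIT3 target (8946 ± 63.7 against 1730.5 ± 24.0), were higher, with BBC3 (701 ± 36.2 against 215 ± 67.6) and TNFRSF10A (515 ± 75.7 against 209 ± 27.6), while the survival gene BCL2 was lower (351 ± 60.9 against 739.7 ± 23.2). Of 11 genes around mTORC1 only EIF4EBP1, a translation repressor that mTORC1 inactivates, was listed, with both the combination (5617 ± 1013) and ezetimibe (4566 ± 144), against 1985 ± 225 in DMSO. A count of 1 of 11 is near the 10.3% of all genes listed as higher with the combination. The EIF4EBP1 difference between those 2 treatments did not pass (log2 0.28 ± 0.12, limma adjusted p = 0.0562). Of 8 glutathione genes, 4 were listed as higher with the combination, beside that same share: GCLC and GCLM, the subunits of the enzyme that starts glutathione synthesis (2582 ± 353 and 4583 ± 751 against 884 ± 76.9 and 2128 ± 308 in DMSO), GGT1 and the cystine transporter SLC7A11. SLC7A11 was also listed with ezetimibe. It belongs to the amino acid list as well and is counted in both. It averaged 7617 ± 2828 with the combination and 5439 ± 173 with ezetimibe, a difference that did not pass (log2 0.41 ± 0.21, limma adjusted p = 0.117).

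The genes closest in pattern were sought by Pearson correlation of log2 values, over 12 libraries for the 4 members in all tables (45 other genes) and over 9 libraries for the rest (351 other genes). The libraries share treatment groups and DMSO controls, so high values are common and are given as a description. ATF3 was closest to GDF15 (r = 0.984), AL133216.2 (0.980) and HKDC1 (0.977), and DDIT3 was close to GDF15 (0.991) and HKDC1 (0.985). NUPR1 was closest to ABHD4 (0.983), RAB3IL1 (0.980) and PCK2 (0.978), while TRIB3 was closest to ADM2 (0.994), STC2 (0.993) and HMOX1 (0.992). Over 9 libraries, the nearest genes were SARS, ABHD4 and KLF15 for CEBPB, KLHDC7B, BHLHA15 and RAB3IL1 for DDIT4, WFS1, AARS and HYOU1 for SESN2, and PCK2, EIF4EBP1 and EDEM2 for CHAC1, all with r between 0.993 and 0.999.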

How the data were processed

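Bulk RNA sequencing of Cal51 cells was analysed for 12 libraries in 4 groups of 3, while 6 others, from cells with and without PKM2, were left out as not analysed here. Read trimming, alignment and counting involve featureCounts 1.5.0-p3, HISAT2 2.0.5, fastp and the hg38 build, per the submitters' processing notes. For the authors' comparisons no tool is given in the sources used here. Per the file headers, each deposited table holds the signal of 6 libraries, a log2 fold change, a p-value and an adjusted p-value per gene. In each deposited table, a search found 1 step per library of which 100% of the signal values were whole multiples within 0.001, and the steps were read as 1 read over a factor per library (0.896 to 1.12). DMSO reads were equal between tables in 1452 of 1452 pairs. The numbers of genes the authors tested (12215, 13596 and 19944 for fenofibrate, ezetimibe and the combination) were inferred from p-value ranks that came out whole (within 0.02) for 58.8%, 89.1% and 89.7% of the p-values used. In that order 17, 156 and 982 p-values were used, so the fenofibrate number and its 0.761% share rest on few values.

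Tables were joined on the scale of the combination table by the mean ratio of shared DMSO values (1.03 for fenofibrate and 0.997 for ezetimibe). Limma 3.58.1 with trend (R 4.3.3) was fitted 2-sided to log2 of the value plus 1, which draws small values towards 0, and was tested on simulated data. With 3 libraries a group, exact tests of single genes cannot go under 0.10. Log2 fold changes against DMSO are the authors' deposited values. Fold ratios are ratios of mean values, and a kb is 1000 bases of the deposited gene length. Gene coordinates equal GENCODE release 29 for 8 of 8 members, and 136 of 137 list entries matched a gene. Members and lists were chosen with earlier results of these data known. List genes named with values were those of the upstream and sequence-family lists and up to 4 per other list with the largest change with the combination, and others were named after their values were seen. For each member the 3 genes closest in pattern were sought, and 1 of them is not reported here. Replicate numbers were not shown to pair the libraries, since 5 of 18 same-numbered pairs had a correlation of deviations over 0.1.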

Additional observations from a re-analysis of the deposited data

Results flagged for a closer look

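The change that each drug brought differed by whether the other drug was present in all 4 stress regulators with values in every group, by limma's test of the log2 change with both drugs minus the sum of the single-drug changes. The difference was 2.89 for ATF3 and 1.22 for DDIT3, where the combination was above the sum, and -0.46 for TRIB3 and -1.42 for NUPR1, where it was below the sum. The direction held in 12 of 12 fits that each left out a library, with limma adjusted p of at most 0.0450 (TRIB3). For TRIB3 and NUPR1 it turns on the scale, since both exceeded the sum of gains in normalised reads. Groups of 3 are too small for an outlier test of single libraries.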

How the results depend on the processing

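The alternatives were another added constant (0.5 or 10), a minimum mean of 50, tables left on their own scales, limma without trend, the replicate number as a block and each library left out. Of the 312 tests of single members under them, 307 kept direction and side of the threshold. CHAC1 and DDIT3 each passed in 1 fit, as given above. The NUPR1 difference between ezetimibe and fenofibrate, 0.00 with all libraries, changed sign in 3 fits and ran from -0.109 to 0.0598 without single libraries (-0.0346 and -0.0132 without fenofibrate replicates 1 and 3 and -0.109 without ezetimibe replicate 1), never past the threshold. Without single libraries, the members' median log2 difference ran from 2.25 to 2.54 for the combination against fenofibrate (2.54 without fenofibrate replicate 2) and from 0.24 to 0.54 against the sum of the single drugs (0.54 without that library). Between ezetimibe and fenofibrate, 1 to 2 members were called, with 2 without fenofibrate replicate 2. With the replicate block, genes called higher were 44 against fenofibrate, 190 against ezetimibe, 24 between the single drugs and 7 above the sum, and it changed no member's call. Planned tests on counts were not run, because the check of low values for steps of 1 read could be made in the combination table alone. In the fenofibrate and ezetimibe tables the values were whole multiples of a step, but that the step is 1 read was inferred. The listed genes, not the libraries' full depth, set what can be compared.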

Other observations

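Within a treatment, the highest library was the same one across most stress regulators with the combination and fenofibrate but not with ezetimibe, and the same count over all listed higher genes is given beside it without a test. Combination replicate 1 was the highest combination library in 7 of 8 members (all but DDIT4), and in 47.8% of the 2058 genes listed as higher with the combination. Fenofibrate replicate 2 was the highest in 4 of 4 members and in 47.3% of the 93 genes listed as higher with fenofibrate. With ezetimibe the highest library was replicate 2 in 4 of 8 members, replicate 1 in 3 and replicate 3 in 1, close to the 39.0%, 34.6% and 26.4% of the 367 genes listed as higher with ezetimibe. The highest combination library stood 1.48-fold above the lowest for DDIT3, 1.46-fold for NUPR1 and 1.11-fold for DDIT4.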
